A study of Mus musculus with 6 samples.

Results

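The transcripts of 32 genes that carry glucose through glycolysis and the pentose phosphate pathway were compared between Raw264.7 cells with and without knockdown of *Etv5*. The genes were found by symbol and make up 32 of the 24786 rows of the expression table. Raw264.7 is a macrophage line established from a mouse tumor induced by Abelson murine leukemia virus, and the labels give its strain as C57BL/6 and its age as postnatal day 21. The study's methods name that strain for its mice and give no strain or age for this line. Whether these labels describe the origin of the line is uncertain. Cells of both groups were infected, with Lipofectamine present, with a lentivirus that coded for a negative control shRNA (sh-NC, genotype control, n = 3 libraries) or for an shRNA against *Etv5* (sh-*Etv5*, genotype *Etv5* knockdown, n = 3 libraries), and the labels state that expression was read 24 or 48 h after infection. The study's text, however, describes the sequenced cells as stably transfected. Its methods list several shRNAs against *Etv5* and keep lentivirus-infected cells in puromycin over passages, so the time since infection is uncertain. They do not name the shRNA behind these libraries or state whether each library had an infection of its own. The p-values below therefore measure the spread between these libraries, which may be technical.

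Glycolysis turns glucose into pyruvate and supplies ATP in the cytosol, and lactate dehydrogenase then reduces pyruvate to lactate, which leaves the cell through monocarboxylate transporters. The pentose phosphate pathway branches off after the hexokinase step. Its oxidative arm makes NADPH, and its non-oxidative arm exchanges sugar phosphates with glycolysis. Macrophages that respond to inflammatory stimuli are known to take up more glucose and to release more lactate, and ETV5 is an ETS family transcription factor. The members were ordered by role into glucose entry with upper glycolysis (12 genes), lower glycolysis from aldolase to lactate dehydrogenase (11 genes), lactate export (2 genes) and the pentose phosphate branch (7 genes).

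Expression was given as RPKM, that is reads divided by the length of the gene and by the mapped total of the library, so levels of different genes can be set side by side. The relative depth of the libraries, read from a ratio that 2.76 to 4.68% of low values shared within 0.0005 on the natural log scale, was 0.897 to 1.06 times that of sh-NC replicate 1, and counting error for single genes could not be computed. *Etv5* measured 9.18, 9.89 and 9.39 RPKM with sh-NC and 5.19, 4.91 and 5.28 RPKM with sh-*Etv5*, a fall of its mean by 46.0% (limma adjusted p = 2.74e-07). All 8 macrophage markers were at 1 RPKM or more in every library, and the highest value of any of 16 markers of T cells, B cells, fibroblasts, epithelial cells and adipocytes was 0.365 RPKM. These 16 markers summed to 0.156 to 0.245 RPKM in the sh-NC libraries and to 0.0999 to 0.469 RPKM in the sh-*Etv5* libraries, and *Col1a2*, *Krt8* and *Lep* were at 0 in all of them. The macrophage markers summed to 4444 to 4569.9 RPKM in sh-NC cells and to 3556 to 3674 RPKM in sh-*Etv5* cells. By limma, 4 of the 8 rose (50%, against 33.3% of all genes tested) while 3 fell (37.5%, against 41%). *Lyz2*, the largest part of that sum, fell from a mean of 2834 to 2041 RPKM, and *Csf1r* (428 to 244) and *Cd68* (365 to 246) fell. *Itgam* (33.8 to 127), *Adgre1* (2.60 to 11.3), *Cd14* (628 to 745) and *Spi1* (163 to 181) rose. In such bulk RNA, fewer cells of a kind and less RNA per cell cannot be told apart.

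Transcripts for glucose uptake and phosphorylation rose, and most enzymes of lower glycolysis rose little or were not called. The lactate transporters moved in opposite directions. The pentose phosphate branch had 57.1% of its members called higher and 42.9% lower, where 33.3% and 41% of all genes tested were. Differences were tested with limma on log2(RPKM + 1) over 10738 genes that reached 1 RPKM in 3 or more libraries, and a gene was called at a Benjamini-Hochberg adjusted p-value under 0.05. Of the 32 members, 31 passed that filter on low values. Higher expression in sh-*Etv5* cells was called for 18 of these 31 and lower expression for 5, and 8 passed in neither direction. The share called was 74.2%, beside 74.3% of all genes tested, so that being called did not set the members apart. By direction, 58.1% of the members were called higher against 33.3% of all genes, and 16.1% were called lower against 41% of all genes. The median log2 fold change of the members was 0.14, and that of all genes tested was -0.05. With an absolute log2 fold change above 0.5 in addition, 9 members were higher (29.0%, against 15.9% of all genes) and 2 were lower (6.45%, against 15%). The groups were fully separated for 25 of the 31 members, or 80.6%, against 76.4% of all genes.

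**Figure D1:**
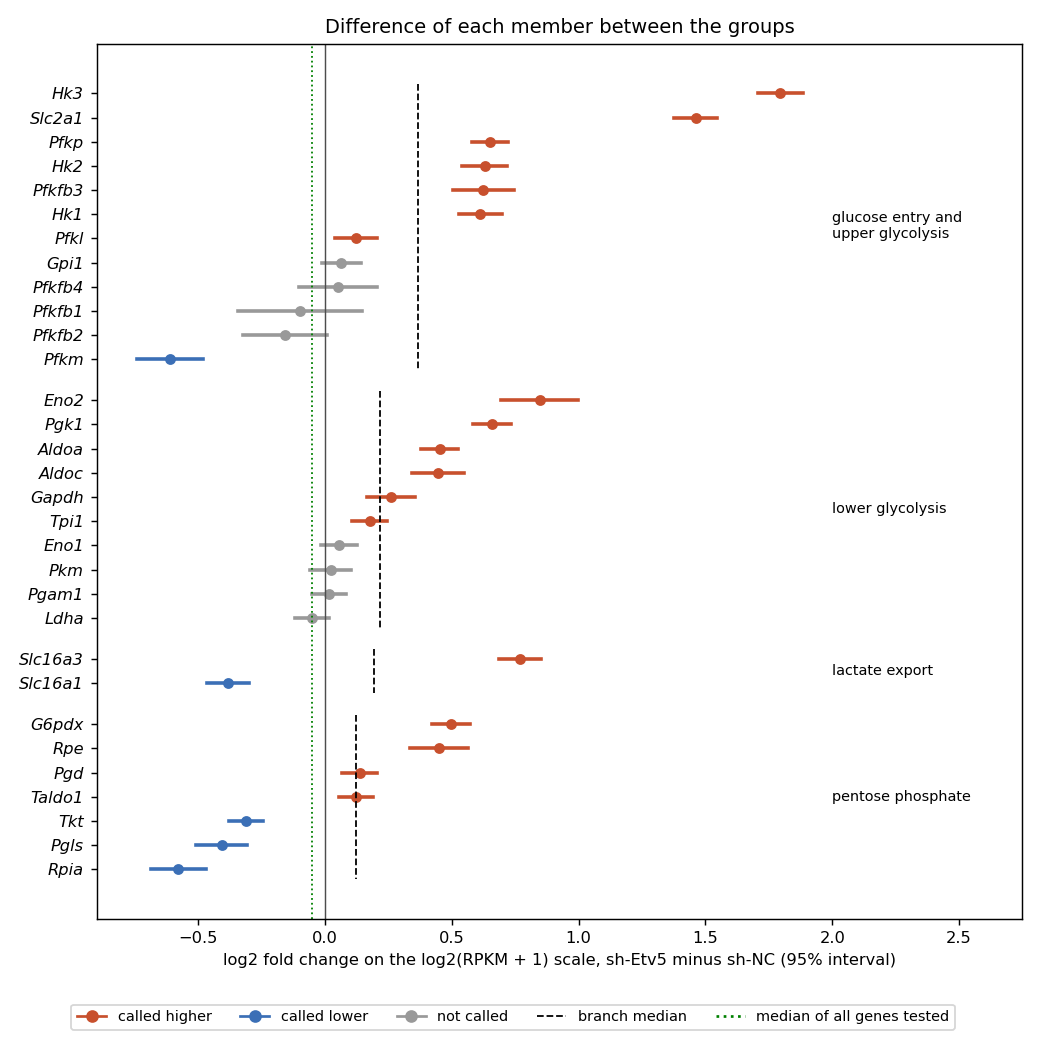
Log2 fold change of each tested member (x axis, sh-*Etv5* minus sh-NC on the log2(RPKM + 1) scale) with its 95% interval, by branch (y axis); red members were called higher, blue lower and grey not called, the dashed lines mark branch medians and the dotted line the median of all 10738 genes tested. *Hk3* (1.80) and *Slc2a1* (1.46) stand apart on the right, and *Pfkm* (-0.61) and *Rpia* (-0.58) lie lowest; the grey *Pgam1*, *Eno1*, *Pkm* and *Ldha* change sign under other scalings of the libraries.

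In these descriptive counts the branches were alike in the share called higher and differed in the share called lower. In glucose entry and upper glycolysis, 7 of 12 members rose (58.3%), 1 fell (8.33%) and 4 were not called. The median log2 fold change there was 0.37. In lower glycolysis, 6 of the 10 tested members rose (60%), 0 fell and 4 were not called, with a median of 0.22. Each lactate transporter was called, in opposite directions (50% each). In the pentose phosphate branch, 4 of 7 members rose (57.1%) and 3 fell (42.9%), with a median of 0.12. Of all genes tested, 33.3% were called higher and 41% lower. Rises above 0.5 on the log2 scale were found for 6 members of glucose entry and upper glycolysis (50%) and 2 of lower glycolysis (20%). They were found for 1 of lactate export (50%) and 0 of the pentose phosphate branch, against 15.9% of all genes. The last of these counts rests on *G6pdx*, which lay just under that limit at 0.497 and passed it with libraries rescaled by the median ratio (0.55, with *Rpe* at 0.501), with quantile normalization (0.501), without sh-NC replicate 1 (0.521) and without sh-*Etv5* replicate 3 (0.51). No test between branches was made.

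Glucose entry held the 2 strongest rises. *Slc2a1* (GRCm38 chromosome 4, 119108711 to 119137983, plus strand) encodes GLUT1, the main glucose carrier of the macrophage surface. *Slc2a1* measured 74.0, 70.2 and 72.3 RPKM with sh-NC and 208, 202 and 192 RPKM with sh-*Etv5*, so that every sh-*Etv5* library was above every sh-NC library. Its mean rose from 72.2 ± 1.92 to 200.5 ± 7.70 RPKM (SD, n = 3), a ratio of 2.78 (log2 fold change 1.46, standard error 0.0379, limma adjusted p = 7.52e-11). By mean RPKM it went from rank 816 to rank 216 of all 24786 genes. The hexokinases trap glucose in the cell as glucose 6-phosphate. *Hk3* (GRCm38 chromosome 13, 55005985 to 55021385, minus strand), an isoform found mainly in myeloid cells, had the largest log2 fold change of the 31 tested members. *Hk3* measured 28.4, 26.9 and 28.3 RPKM with sh-NC and 101, 102 and 95.4 RPKM with sh-*Etv5*, without overlap of the groups. The mean of *Hk3* rose from 27.9 ± 0.838 to 99.3 ± 3.43 RPKM (SD, n = 3), a ratio of 3.56 (log2 fold change 1.80, standard error 0.0397, limma adjusted p = 1.9e-11).

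The other hexokinases rose less. *Hk1* measured 46.0, 46.2 and 46.9 RPKM with sh-NC and 72.7, 73.6 and 68.0 RPKM with sh-*Etv5*, and this ubiquitous isoform rose by a ratio of 1.54 (log2 fold change 0.61, standard error 0.0388, limma adjusted p = 8.51e-08). *Hk2* measured 25.3, 25.1 and 25.9 RPKM with sh-NC and 39.4, 41.5 and 38.7 RPKM with sh-*Etv5*, and this isoform, which is inducible in many tissues, rose by a ratio of 1.57 (log2 fold change 0.63, standard error 0.0403, limma adjusted p = 9.31e-08). The groups did not overlap for either gene. The summed RPKM of *Hk1*, *Hk2* and *Hk3* went from 99.6 ± 1.46 to 211 ± 7.64 RPKM (SD, n = 3). Within that sum, the share of *Hk3* rose from 28.0 ± 0.546 to 47.1 ± 0.174% (SD, n = 3), while the share of *Hk1* fell from 46.5 ± 0.465 to 33.9 ± 0.266% (SD, n = 3). *Hk1* was thus the most abundant hexokinase transcript in each sh-NC library, and *Hk3* in each sh-*Etv5* library. The log2 fold changes of *Slc2a1*, *Hk1*, *Hk2* and *Hk3* kept their direction and their call under every scaling of the libraries and without any single library.

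The 250 bases before RefSeq starts of *Hk2*, *Hk3* and *Pgk1*, which rose, and of *Ldha*, which was not called, are shown. They are given 5′ to 3′ on the strand of the gene (GRCm38.p6) and lie outside annotated exons. These genes were chosen after their values were seen. The windows are chr13:55021386-55021635 (minus strand) for *Hk3*, chr6:82774455-82774704 (minus strand) for *Hk2*, chrX:106186850-106187099 (plus strand) for *Pgk1* and chr7:46845554-46845803 (plus strand) for *Ldha*. Capitals mark ACGTG on either strand, which reads CACGT where it lies on the opposite strand and is the core that hypoxia-inducible factors are known to bind. Every window shown holds ACGTG. Other windows outside annotated exons are not shown, among them those of *Gapdh*, *Taldo1* and *Rpe*, which rose and had no ACGTG.
Hk3: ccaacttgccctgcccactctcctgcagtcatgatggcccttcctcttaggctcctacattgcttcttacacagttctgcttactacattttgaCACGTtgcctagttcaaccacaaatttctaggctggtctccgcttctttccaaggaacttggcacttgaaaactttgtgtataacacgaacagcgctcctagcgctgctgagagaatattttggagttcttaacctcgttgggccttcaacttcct
Hk2: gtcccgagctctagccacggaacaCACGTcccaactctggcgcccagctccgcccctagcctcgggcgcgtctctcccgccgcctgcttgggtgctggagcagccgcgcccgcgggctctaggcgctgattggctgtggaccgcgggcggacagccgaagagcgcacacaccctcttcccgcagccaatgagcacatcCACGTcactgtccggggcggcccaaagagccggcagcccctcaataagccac
Pgk1: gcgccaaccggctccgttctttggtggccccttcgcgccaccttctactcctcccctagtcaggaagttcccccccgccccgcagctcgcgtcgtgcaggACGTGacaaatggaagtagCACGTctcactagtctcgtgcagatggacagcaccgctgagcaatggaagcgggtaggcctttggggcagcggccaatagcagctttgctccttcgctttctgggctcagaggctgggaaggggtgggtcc
Ldha: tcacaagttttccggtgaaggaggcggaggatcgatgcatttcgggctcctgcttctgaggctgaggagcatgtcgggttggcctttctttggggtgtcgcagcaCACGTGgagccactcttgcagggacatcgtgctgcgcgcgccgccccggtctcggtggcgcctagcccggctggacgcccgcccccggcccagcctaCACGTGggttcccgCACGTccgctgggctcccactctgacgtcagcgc
All 32 members matched RefSeq promoters by symbol, with 50 starts in all, since some genes have several. ACGTG was present on either strand before 17 of these 50 starts (34%), against 16.6% of 32851 mouse promoters of the same length. GCGTG, the other form of that core, was present before 27 starts (54%), against 28.2% of all promoters. Some windows of the same gene overlap, so that 1 site can count for several starts, as for ACGTG in *Aldoa* and GCGTG in *Pfkm* and *Eno1*. The promoters compared were not matched for base composition, and no test was made. The E-box CACGTG, which contains ACGTG, was present before 5 starts (10%), against 6.02%. CCGGAAGT, a sequence bound by ETS factors, was present before 1 start (2%), of *Pfkfb1*, against 2.88%, and the shorter ETS core GGAA before 94%, against 93.4%. TGACNNNGC, the antioxidant element, was present before 4 starts (8%), against 10.2%. Of the 13 members with ACGTG before a start, *Slc2a1*, *Hk2*, *Hk3*, *Pfkfb3*, *Aldoa*, *Pgk1* and *Slc16a3* rose, *Pfkm* and *Slc16a1* fell, and *Ldha*, *Pgam1*, *Pkm* and *Pfkfb2* were not called. Beside these, 58.1% of all 31 tested members were called higher and 16.1% lower, and 33.3% and 41% of all genes. A link between ACGTG and the calls was not tested. In the window shown for *Ldha*, ACGTG was read 5 times, with each E-box read once on either strand, and the other RefSeq start of *Ldha*, also outside annotated exons, had no ACGTG and is not shown.

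The committed step of glycolysis is catalyzed by phosphofructokinase 1. Of its 3 subunits, 2 were called higher and 1 lower (66.7% and 33.3%, against 33.3% and 41% of all genes). The summed RPKM of *Pfkl*, *Pfkm* and *Pfkp* went from 115 ± 1.31 to 148 ± 1.75 RPKM (SD, n = 3). *Pfkp* measured 52.0, 53.3 and 53.1 RPKM with sh-NC and 83.4, 83.3 and 83.4 RPKM with sh-*Etv5*, a ratio of 1.58 (log2 fold change 0.65, standard error 0.0320, limma adjusted p = 1.09e-08), and its exons share 5.58% of their bases with *Pitrm1* on the opposite strand, which went from 28.4 to 23.9 RPKM. The use of strand in counting was not given, so reads of overlapping genes cannot be told apart. *Pfkm* (GRCm38 chromosome 15, 98092589 to 98132451, plus strand), the muscle-type subunit, was called in the other direction. *Pfkm* measured 6.71, 6.52 and 6.87 RPKM with sh-NC and 4.15, 4.16 and 3.83 RPKM with sh-*Etv5*, a ratio of 0.604 (log2 fold change -0.61, standard error 0.0597, limma adjusted p = 3.17e-06). Of its exonic bases, 10.2% overlap the annotated gene *Gm26513* on the same strand. *Pfkl* measured 57.3, 54.1 and 56.2 RPKM with sh-NC and 62.0, 61.6 and 59.1 RPKM with sh-*Etv5*, a small difference for the liver-type subunit (ratio 1.09, log2 fold change 0.12, standard error 0.0376, limma adjusted p = 0.0123). The call for *Pfkl* was lost with libraries rescaled to the same sum (adjusted p = 0.179) and without sh-NC replicate 2 (adjusted p = 0.0635), both from limma. The share of *Pfkp* among these subunits rose from 45.8 ± 0.986 to 56.2 ± 0.686% (SD, n = 3), and that of *Pfkm* fell from 5.81 ± 0.0968 to 2.73 ± 0.0979% (SD, n = 3). *Gpi1*, which converts glucose 6-phosphate to fructose 6-phosphate, measured 196, 190.1 and 188 RPKM with sh-NC and 207, 199 and 195 RPKM with sh-*Etv5*. Its groups overlapped and it was not called (log2 fold change 0.06, 95% interval -0.01 to 0.14, limma adjusted p = 0.117), although it was without sh-*Etv5* replicate 3 (limma adjusted p = 0.039) and with libraries rescaled by the median ratio (0.0135).

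*Pfkfb3* (GRCm38 chromosome 2, 11471433 to 11554077, minus strand) encodes a bifunctional enzyme that makes fructose 2,6-bisphosphate, the activator of phosphofructokinase 1. *Pfkfb3* measured 8.18, 8.09 and 8.63 RPKM with sh-NC and 13.1, 14.1 and 12.8 RPKM with sh-*Etv5*, without overlap. It was the called member of its family of 4, with a ratio of 1.61 (log2 fold change 0.62, standard error 0.0544, limma adjusted p = 1.22e-06). *Pfkfb4* measured 5.22, 5.86 and 4.95 RPKM with sh-NC and 5.35, 5.92 and 5.44 RPKM with sh-*Etv5*, and the groups of this isoform overlapped (log2 fold change 0.05, 95% interval -0.10 to 0.21, limma adjusted p = 0.514). *Pfkfb2* measured 1.90, 2.22 and 1.96 RPKM with sh-NC and 1.67, 1.73 and 1.74 RPKM with sh-*Etv5*, which were lower in each sh-*Etv5* library but not called (log2 fold change -0.16, 95% interval -0.32 to 0.01, limma adjusted p = 0.0805). The call for *Pfkfb2* depended on the settings, since its limma adjusted p was 0.0239 without the intensity trend, 0.0383 after rescaling to equal sums and 0.00559 with quantile normalization. *Pfkfb1*, the liver isoform, lay between 1.13 and 1.68 RPKM over all libraries and was not called (limma adjusted p = 0.445). The share of *Pfkfb3* in the summed RPKM of the family rose from 48.3 ± 1.80 to 60.7 ± 0.534% (SD, n = 3).

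**Figure D2:**
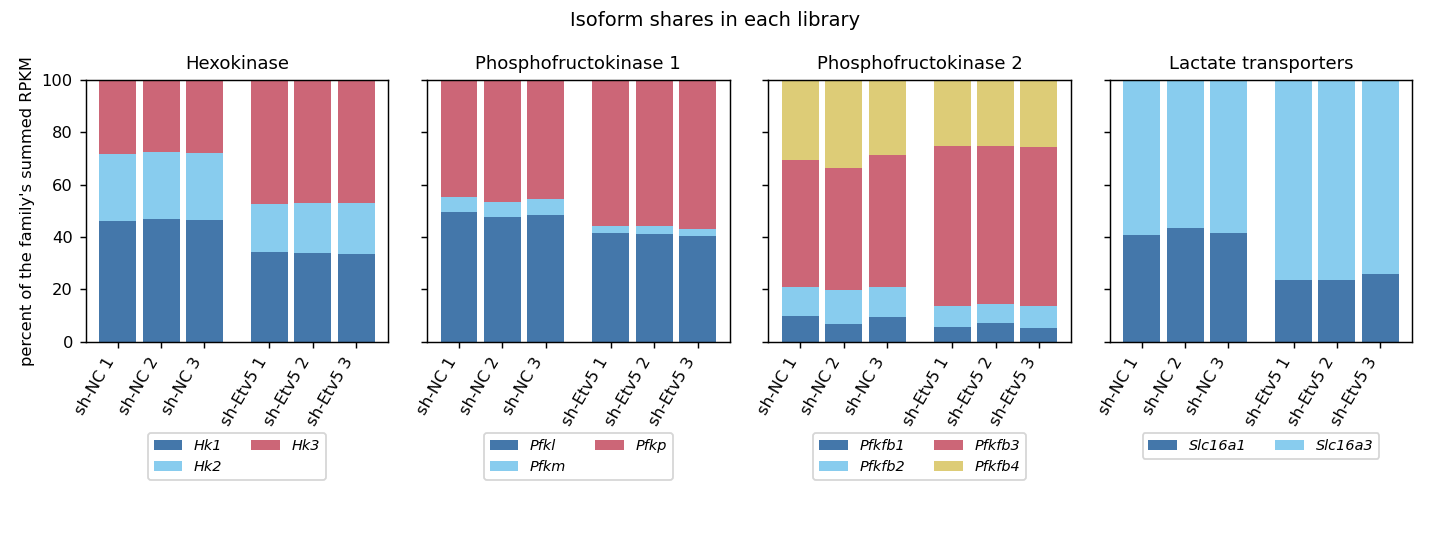
Share of each isoform in the summed RPKM of its family (y axis, percent) in each of the 6 libraries (x axis), for hexokinase, phosphofructokinase 1, phosphofructokinase 2 and the lactate transporters. *Hk3* grew from 28.0 to 47.1% of the hexokinase sum and *Slc16a3* from 58.0 to 75.6% of the lactate transporter sum, as group means.

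Lower glycolysis contained the most abundant members. *Aldoa* (GRCm38 chromosome 7, 126795234 to 126800751, minus strand), the aldolase that splits fructose 1,6-bisphosphate, measured 749, 732 and 726 RPKM with sh-NC and 1039, 988 and 994 RPKM with sh-*Etv5*. Its ratio was 1.37 (log2 fold change 0.45, standard error 0.0330, limma adjusted p = 2.74e-07), and in difference of mean RPKM it rose more than any other member. *Aldoc* measured 11.1, 11.1 and 11.3 RPKM with sh-NC and 15.2, 16.2 and 15.4 RPKM with sh-*Etv5*, a ratio of 1.40 for an isoform that made up about 1.5% of the aldolase sum in either group. *Pgk1* (GRCm38 chromosome X, 106187100 to 106203699, plus strand), which makes ATP from 1,3-bisphosphoglycerate, had the largest log2 fold change in lower glycolysis of the genes above 10 RPKM in sh-NC cells. *Pgk1* measured 275, 267 and 269.6 RPKM with sh-NC and 421, 418 and 445 RPKM with sh-*Etv5*, a ratio of 1.58 (log2 fold change 0.66, standard error 0.0341, limma adjusted p = 1.6e-08). Of the 50-base sequences of *Pgk1* transcripts, 53.9% also occur in 5 other annotated genes, mainly *Pgk1-rs7*, so its level is uncertain where reads were shared.

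*Gapdh* and *Tpi1*, which handle the triose phosphates, rose by smaller ratios. *Gapdh* measured 509, 467 and 478 RPKM with sh-NC and 610.1, 557 and 576 RPKM with sh-*Etv5*, and the lowest sh-*Etv5* library was above the highest sh-NC library. The ratio for *Gapdh* was 1.20 (log2 fold change 0.26, standard error 0.0431, limma adjusted p = 0.000223), and 25.1% of its 50-base sequences occur in other annotated genes. *Tpi1* measured 459, 449.9 and 457 RPKM with sh-NC and 525, 499.7 and 519.6 RPKM with sh-*Etv5*, a ratio of 1.13 (log2 fold change 0.18, standard error 0.0318, limma adjusted p = 0.000417). *Eno2*, known as neuron-specific enolase, had the largest log2 fold change of lower glycolysis at a low level. *Eno2* measured 3.31, 3.60 and 3.99 RPKM with sh-NC and 7.05, 7.30 and 7.63 RPKM with sh-*Etv5*, a ratio of 2.01 (log2 fold change 0.85, standard error 0.0692, limma adjusted p = 7.18e-07). It made up 0.542% of the summed RPKM of *Eno1* and *Eno2* in sh-NC cells and 1.04% in sh-*Etv5* cells.

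Of the last steps of the pathway, *Pgam1*, *Eno1*, *Pkm* and *Ldha* were not called, while *Eno2* was. *Pkm*, pyruvate kinase, was the most abundant member, at rank 3 of all genes by mean RPKM in sh-NC cells. *Pkm* measured 2907, 2786 and 2795 RPKM with sh-NC and 2972, 2860.0 and 2797 RPKM with sh-*Etv5*, with overlapping groups (log2 fold change 0.02, 95% interval -0.06 to 0.10, limma adjusted p = 0.569). Of its 50-base sequences 25.8% occur in other annotated genes, mainly *Gm49759*. *Ldha* measured 914, 899 and 893 RPKM with sh-NC and 883, 857 and 875 RPKM with sh-*Etv5*. The *Ldha* libraries did not overlap and were lower in sh-*Etv5* cells, but the difference was not called (log2 fold change -0.05, 95% interval -0.12 to 0.02, limma adjusted p = 0.164). *Eno1*, the main enolase, measured 684, 656 and 665 RPKM and 706, 676 and 703 RPKM in the same order (log2 fold change 0.06, 95% interval -0.02 to 0.13, limma adjusted p = 0.144). Of its 50-base sequences 26.0% occur in other genes, mainly the copy *Eno1b*, which was itself listed at 339 and 353 RPKM. *Pgam1*, phosphoglycerate mutase, measured 434, 426 and 417 RPKM and 437, 426 and 428 RPKM (log2 fold change 0.02, 95% interval -0.05 to 0.08, limma adjusted p = 0.65), and 36.2% of its 50-base sequences occur in other genes. *Ldhb*, the lactate dehydrogenase subunit of heart-type enzyme, was listed at 0 in all 6 libraries and was not tested. The signs of *Pkm*, *Pgam1*, *Eno1* and *Ldha* depended on the scaling of the libraries, and that of *Pkm* also turned without sh-*Etv5* replicate 1 (log2 fold change -0.000152). *Ldha* was called lower after rescaling to equal sums (limma adjusted p = 0.0011) and with quantile normalization (0.000142), and *Pkm* with the latter (2.56e-06). *Eno1* was called higher without sh-*Etv5* replicate 2 (limma adjusted p = 0.0471), by the median ratio (0.0121) and with quantile normalization (0.0345).

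**Figure D3:**
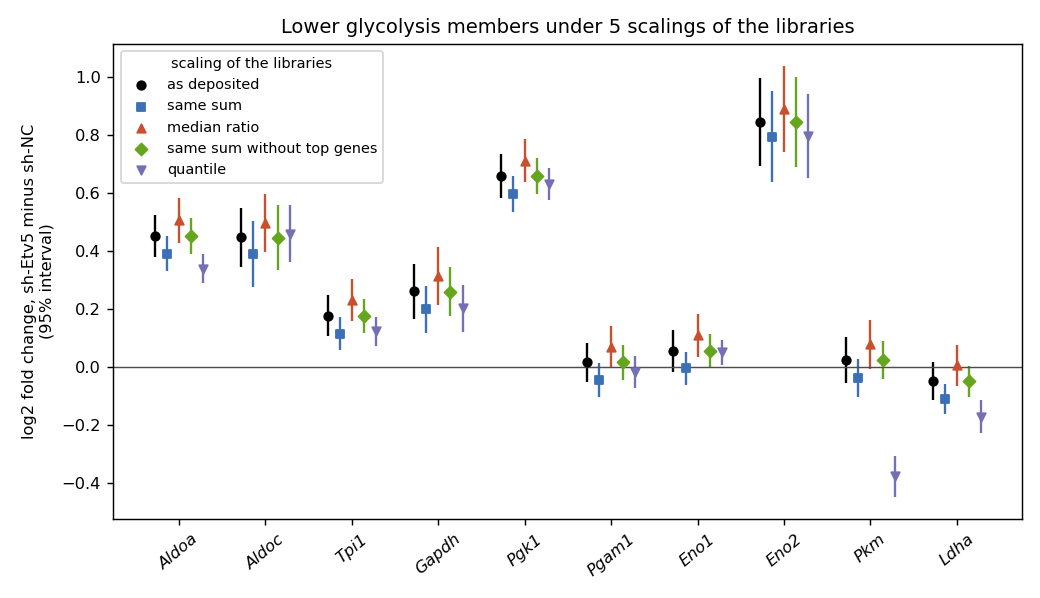
Log2 fold change with 95% interval (y axis, sh-*Etv5* minus sh-NC) of the 10 tested members of lower glycolysis (x axis) with RPKM as deposited and under 4 other scalings of the libraries. *Aldoa*, *Aldoc*, *Tpi1*, *Gapdh*, *Pgk1* and *Eno2* stay above 0 under all of them, whereas *Pgam1*, *Eno1*, *Pkm* and *Ldha* lie on either side of 0 depending on the scaling, and *Pkm* reaches -0.38 with quantile normalization.

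The lactate transporters were called in opposite directions. *Slc16a3* (GRCm38 chromosome 11, 120948480 to 120960868, plus strand) encodes MCT4, known as an exporter of lactate from glycolytic cells. *Slc16a3* measured 105, 98.4 and 102 RPKM with sh-NC and 178, 176 and 169 RPKM with sh-*Etv5*, a ratio of 1.71 (log2 fold change 0.77, standard error 0.0373, limma adjusted p = 9.81e-09). *Slc16a1* (GRCm38 chromosome 3, 104638668 to 104658462, plus strand) encodes MCT1, which carries lactate and pyruvate in either direction. *Slc16a1* measured 72.8, 75.2 and 73.0 RPKM with sh-NC and 55.4, 55.0 and 58.6 RPKM with sh-*Etv5*, a ratio of 0.764 (log2 fold change -0.38, standard error 0.0371, limma adjusted p = 2.99e-06). The groups did not overlap for either gene. The share of *Slc16a3* in their summed RPKM rose from 58.0 ± 1.25 to 75.6 ± 1.19% (SD, n = 3), and the sum itself went from 176 ± 2.34 to 231 ± 3.40 RPKM (SD, n = 3). *Bsg*, which encodes the chaperone that brings both transporters to the surface, rose from 154 ± 0.931 to 184 ± 4.06 RPKM (SD, n = 3) (log2 fold change 0.26, standard error 0.0312, limma adjusted p = 1.87e-05).

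Within the oxidative arm of the pentose phosphate branch, the NADPH-forming dehydrogenases rose and the lactonase between them fell. *G6pdx* (GRCm38 chromosome X, 74409483 to 74429194, minus strand) encodes glucose 6-phosphate dehydrogenase, which commits glucose 6-phosphate to the pathway. *G6pdx* measured 79.6, 75.7 and 75.6 RPKM with sh-NC and 111, 109 and 107 RPKM with sh-*Etv5*, a ratio of 1.42 (log2 fold change 0.50, standard error 0.0347, limma adjusted p = 1.9e-07). Its exons share 13.6% of their bases with *Ikbkg* on the opposite strand, which was at 5.36 and 4.41 RPKM. *Pgd* measured 148, 143 and 149 RPKM with sh-NC and 161, 162 and 162 RPKM with sh-*Etv5*, a ratio of 1.10 (log2 fold change 0.14, standard error 0.0309, limma adjusted p = 0.002) for the most abundant member of this branch. *Pgls*, the 6-phosphogluconolactonase, moved the other way. *Pgls* measured 81.2, 75.3 and 78.3 RPKM with sh-NC and 58.0, 56.2 and 62.4 RPKM with sh-*Etv5*, a ratio of 0.752 (log2 fold change -0.41, standard error 0.0454, limma adjusted p = 9.84e-06). Of its exonic bases, 20.6% overlap *Fam129c* on the same strand, which was at 1.62 and 1.64 RPKM.

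The non-oxidative arm had 2 members called higher and 2 lower (50% each, against 33.3% and 41% of all genes). *Tkt* measured 144, 141 and 143 RPKM with sh-NC and 117, 114 and 114 RPKM with sh-*Etv5*, a ratio of 0.805 (log2 fold change -0.31, standard error 0.0305, limma adjusted p = 3.39e-06) for transketolase, which moves carbon units between sugar phosphates. *Taldo1* measured 129, 125 and 127 RPKM with sh-NC and 139.9, 137 and 138 RPKM with sh-*Etv5*, a ratio of 1.09 (log2 fold change 0.12, standard error 0.0306, limma adjusted p = 0.00368) for transaldolase, the partner of transketolase. The call for *Taldo1* was lost with libraries rescaled to the same sum (limma adjusted p = 0.0767). *Rpia* and *Rpe* act on ribulose 5-phosphate, the former as the isomerase that makes ribose 5-phosphate and the latter as the epimerase that makes xylulose 5-phosphate. *Rpia* measured 20.8, 20.0 and 20.0 RPKM with sh-NC and 12.9, 12.8 and 14.03 RPKM with sh-*Etv5*, a ratio of 0.654 (log2 fold change -0.58, standard error 0.0485, limma adjusted p = 9e-07). *Rpe* measured 11.7, 12.4 and 13.1 RPKM with sh-NC and 16.7, 17.5 and 17.7 RPKM with sh-*Etv5*, a ratio of 1.40 (log2 fold change 0.45, standard error 0.0517, limma adjusted p = 1.2e-05). Of the exonic bases of *Rpe*, 17.9% overlap *Kansl1l* on the opposite strand, which was at 2.74 and 2.93 RPKM. The 7 genes of the branch together held 0.188 ± 0.00268% of all RPKM in sh-NC and 0.183 ± 0.00181% in sh-*Etv5* libraries (SD, n = 3). All RPKM of a library summed to 320462 to 322949 with sh-NC and to 330454 to 340257 with sh-*Etv5*, so the lower share does not mean a lower sum for the branch.

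**Figure D4:**
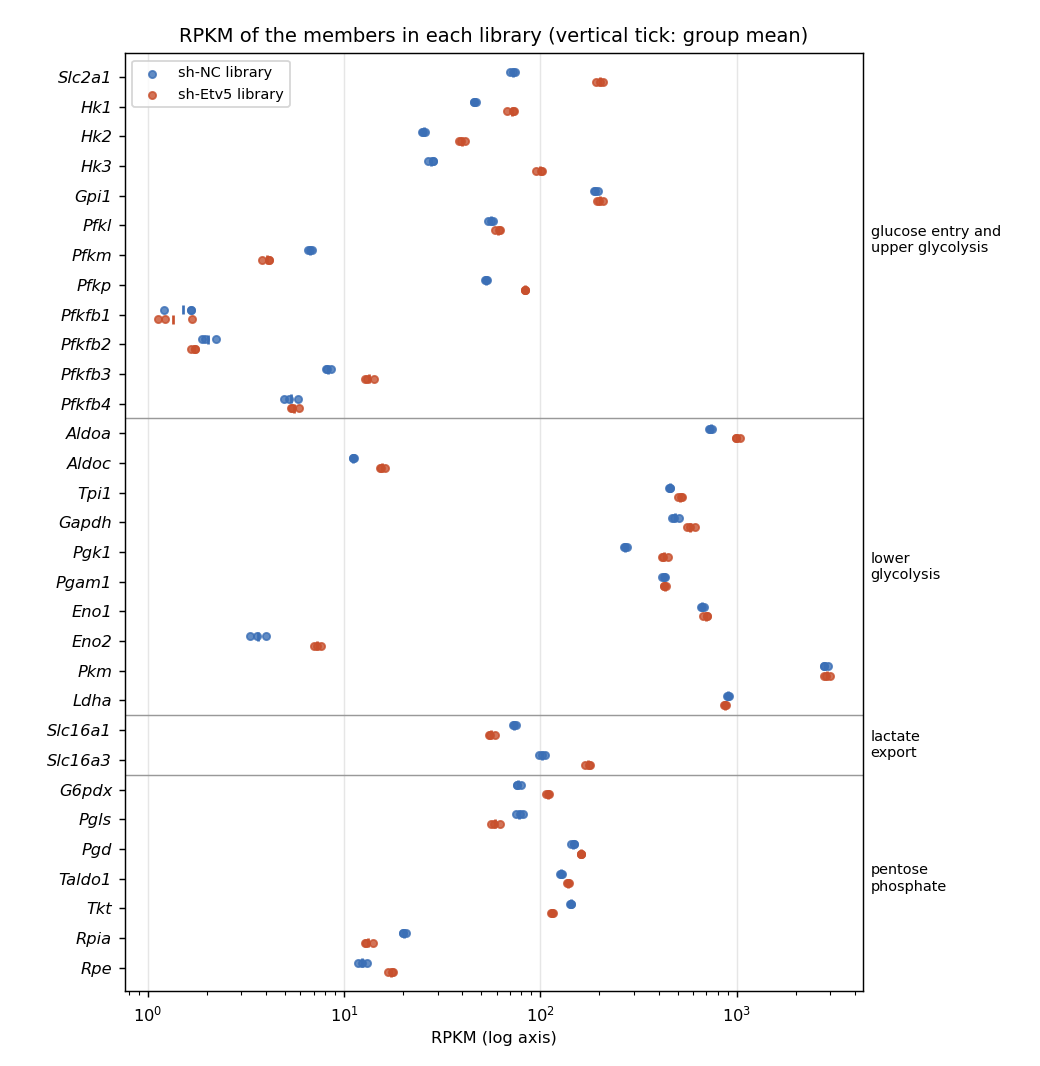
RPKM of the 31 tested members (x axis, log scale) in each of the 3 sh-NC (blue) and 3 sh-*Etv5* (red) libraries, with members on the y axis by branch and a vertical tick at each group mean. Lower glycolysis spans *Eno2* below 10 RPKM to *Pkm* near 2829 RPKM in sh-NC cells, and the groups separate most for *Slc2a1* and *Hk3*.

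All 32 members together made up 2.51 ± 0.0380% of the summed RPKM in sh-NC libraries and 2.70 ± 0.0634% in sh-*Etv5* libraries (SD, n = 3). Lower glycolysis accounted for 2.11 and 2.21% of all RPKM, and glucose entry with upper glycolysis for 0.154 and 0.233%. The larger ratios of the latter were thus set on transcripts that were scarce beside those of lower glycolysis.

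A wider list of 55 genes of glucose metabolism was read beside the members. Of these, 36 were tested, of which 17 rose, 11 fell and 8 were not called, which is 77.8% called against 74.3% of all genes, with a median log2 fold change of 0.09. In glycogen and glucose 1-phosphate metabolism, 5 of 6 tested genes were higher and 1 was lower, where 33.3% of all genes tested were called higher and 41% lower. Counts in such short lists are descriptive. *Gys1*, glycogen synthase, rose from 13.1 ± 0.995 to 26.2 ± 1.41 RPKM (SD, n = 3) (log2 fold change 0.95), and the phosphoglucomutases *Pgm1* (1.04) and *Pgm2* (0.58) rose as well. Of 3 tested brakes on glucose uptake or glycolysis, 2 rose and 1 was not called (66.7% higher, against 33.3% of all genes). *Arrdc4*, an arrestin-like relative of *Txnip*, rose from 0.159 ± 0.0370 to 3.87 ± 0.273 RPKM (SD, n = 3), and *Txnip* rose from 137 to 151 RPKM (log2 fold change 0.14). Of 3 other glucose transporters tested, 1 rose, 1 fell and 1 was not called (33.3% higher and 33.3% lower, against 33.3% and 41% of all genes). *Slc2a6*, nearly as abundant as *Slc2a1* in sh-NC cells, fell from 66.1 ± 2.43 to 51.2 ± 0.607 RPKM (SD, n = 3), and *Slc2a3* rose from 9.91 ± 0.236 to 11.8 ± 0.472 RPKM (SD, n = 3).

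Among other pentose and ribose phosphate genes, 3 were higher and 3 lower (50% each, against 33.3% and 41% of all genes). *H6pd*, the hexose 6-phosphate dehydrogenase of the endoplasmic reticulum, fell (log2 fold change -0.63), *Prps2*, a ribose phosphate pyrophosphokinase, fell from 18.2 ± 0.566 to 9.61 ± 0.384 RPKM (SD, n = 3) (log2 fold change -0.86), and *Rbks*, ribokinase, rose (log2 fold change 0.68). *Me1*, malic enzyme and another source of cytosolic NADPH, rose from 5.82 ± 0.155 to 11.2 ± 0.424 RPKM (SD, n = 3) (log2 fold change 0.84). In polyol and fructose metabolism, *Sord* rose (log2 fold change 0.62) and *Khk*, ketohexokinase, fell from 8.08 ± 0.907 to 2.91 ± 0.538 RPKM (SD, n = 3) (log2 fold change -1.22). *Eno3*, muscle enolase, fell (log2 fold change -0.62). Of 4 tested transcription factors known to act on glycolytic genes, 2 rose and 2 fell (50% each, against 33.3% and 41% of all genes). *Myc* rose from 0.341 to 11.96 RPKM (log2 fold change 3.27) and *Mlx* rose (log2 fold change 0.61). *Mlxip*, which encodes a partner of MLX, fell from 8.94 to 7.76 RPKM (log2 fold change -0.18, limma adjusted p = 0.0214). *Hif1a* transcripts were slightly lower, from 38.9 to 35.3 RPKM (log2 fold change -0.14, limma adjusted p = 0.0121), and transcript levels do not measure the HIF-1α protein.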

How the data were processed

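The polyA RNA of 3 sh-NC and 3 sh-*Etv5* Raw264.7 libraries was sequenced from TruSeq libraries. The authors deposited RPKM values, 1 per gene symbol and library, in columns named after coverage tracks, on the mm10 build per the submitters' processing notes; the aligner, annotation and use of strand were not given in the sources used here. RPKM divides by gene length and mapped reads, so a change in a few abundant genes moves the values of the rest.

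Groups came from sample titles, and all 6 columns were used. Genes that reached 1 RPKM in 3 or more libraries were fitted with limma 3.58.1 in R 4.3.3 (log2(RPKM + 1), intensity trend, no covariate, tested in both directions), and Benjamini-Hochberg adjusted p-values under 0.05 over all 10738 genes were called. The fold change on this scale understates that of low genes. An exact two-sided permutation test of 3 against 3 libraries cannot go below 0.1. On simulated data for this comparison with 10738 genes, 87 of 100 genes changed by 0.5 and 99 of 100 changed by 1 on the log2 scale were called, with 13 false calls. In the libraries themselves, 7974 of 10738 genes (74.3%) were called. The number of false calls with so many genes called was not tested.

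Coordinates and shared 50-base sequences came from GENCODE M21 (GRCm38), of which mm10 is the same assembly, and promoters from RefSeq. Tables were made in Python 3.11.15 with pandas 2.3.3. The members and lists were chosen with earlier results of these data known. Every member was described, and named from the wider list were the called genes with an absolute log2 fold change above 0.5, together with *Bsg*, *Txnip*, *Slc2a3*, *Slc2a6*, *Mlxip* and *Hif1a*, which were named after their values were seen. Alternatives were other pseudocounts, filters, thresholds and scalings, no trend, a replicate block, and each library left out.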

Additional observations from a re-analysis of the deposited data

How the results depend on the processing

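Of the 31 fitted members, 13 kept their direction and call in every limma alternative, and of 556 such member values 523 did, 16 lost the call, 10 gained it and 7 turned in sign. Adjusted p under 0.01 and the 0.5 limit on the log2 scale were set on the main fit, so they could not turn a sign. *Aldoa*, *Aldoc*, *Tpi1*, *Gapdh*, *Slc16a1*, *G6pdx*, *Pgls*, *Pgd*, *Tkt* and *Rpe* lost their call under that 0.5 limit alone, an outcome fixed by their main values. The reversals were all of members that had not been called. After rescaling to equal sums, log2 fold changes were -0.0454 for *Pgam1*, -0.00553 for *Eno1* and -0.0379 for *Pkm*. With quantile normalization they were -0.0189 for *Pgam1* and -0.38 for *Pkm*, by the median ratio *Ldha* was at 0.00465, and without single libraries *Pkm* lay between -0.000152 (without sh-*Etv5* replicate 1) and 0.0436. Scalings moved the median of all genes by -0.05 to 0.05. Quantile normalization gave 8 members lower, 2 each in glucose entry with upper glycolysis and in lower glycolysis. Rescaling to the same sum gave 2 and 1 lower there, and eBayes without trend 2 lower in the former; the cause was not tested. Requiring an absolute log2 fold change above 0.5 left, by construction, 9 members higher and 2 lower, with 2 higher in lower glycolysis, 0 lower in lactate export, and 0 higher and 1 lower in the pentose phosphate branch. The same limit left 9 higher and 4 lower genes of the wider list, and 1711 higher and 1611 lower of all genes. Without single libraries, 17 to 19 members were higher and 5 were lower.

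Same-numbered libraries did not deviate together (correlations 0.0739, -0.071 and -0.0352), and 2 of 6 libraries correlated best with their own number. With the replicate number as a block, 18 members were higher and 5 lower, and 3539 and 4361 of all genes. The exact permutation test, which cannot go below 0.1, called no member. *Pfkm*, *Pfkfb1*, *Pfkfb2*, *Pfkfb4* and *Eno2* lay below 10 RPKM in every library, where counting error, which could not be computed, weighs most.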

Other observations

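*Gapdh*, a member of lower glycolysis, is also among the reference genes that the methods name for RT-qPCR, with *Actb* and *Hprt*. *Actb* measured 2411, 2349 and 2338 RPKM with sh-NC and 2259, 2197 and 2290.2 RPKM with sh-*Etv5*, and it was not called (log2 fold change -0.07, 95% interval -0.15 to -0.00, limma adjusted p = 0.0649). *Hprt* was not called either (log2 fold change -0.13, 95% interval -0.26 to 0.00, limma adjusted p = 0.0727). *Actb* was called lower after rescaling to equal sums (limma adjusted p = 0.00015), with the scaling that left out the top genes (0.0134), with quantile normalization (8.35e-10) and without sh-*Etv5* replicate 3 (0.0194). *Hprt* was called lower after rescaling to equal sums (limma adjusted p = 0.00768), with quantile normalization (0.0373), without sh-NC replicate 1 (0.0323) and without sh-*Etv5* replicate 3 (0.00494). The ratio of *Actb* to *Gapdh* RPKM was 4.74, 5.03 and 4.89 in the sh-NC libraries and 3.70, 3.95 and 3.98 in the sh-*Etv5* libraries. The ratio of *Hprt* to *Gapdh* was 0.191, 0.237 and 0.217 in the sh-NC libraries and 0.151, 0.159 and 0.180 in the sh-*Etv5* libraries. The groups did not overlap in either ratio, and a common factor for all genes of a library leaves both ratios as they are, which quantile normalization does not. The share of all tested genes whose libraries did not overlap in RPKM was 76.4%. Which of these genes changed cannot be read from a ratio.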
